A study of Mus musculus with 4 samples.

Results

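The 7 genes described here are neutrophil primary granule genes, chosen by gene symbol: Mpo, Elane, Prtn3, Ctsg, Ms4a3, Srgn and Serpinb1a. They are 7 of the 16442 genes in the deposited table, and all 7 passed the filter on low values that left 6390 genes for testing. Ribosome footprints, the stretches of mRNA that ribosomes shield from nuclease, were measured in stem cells of a leukaemia, taken from bone marrow of C57BL/6 mice, with an input RNA measurement of each lysate. There were 2 libraries from WT mice and 2 from mice labelled Rreb1-KO, and all 4 carry the disease state leukaemia. KO replicate 2 carries the genotype entry Rreb2-KO and was grouped by its title. The leukaemia model, the animals' age, the deleted allele and the sort that defined the cells are not given in the sources used here.

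Primary granules, also called azurophil granules, are the first granules made as a neutrophil matures, and they form at the promyelocyte stage. They are modified lysosomes that hold myeloperoxidase and a family of serine proteases, which kill ingested microbes. Their genes are transcribed strongly for a short window and then shut off, and myeloperoxidase serves as a lineage marker in the diagnosis of myeloid leukaemia.

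Elane (neutrophil elastase), Prtn3 (proteinase 3) and Ctsg (cathepsin G) encode the serine proteases. Mpo encodes myeloperoxidase, a haem enzyme that makes hypochlorous acid. Srgn encodes serglycin, the proteoglycan core that packs proteases into granules. Serpinb1a encodes a cytosolic inhibitor of neutrophil serine proteases, and so is a partner of the granule rather than a part of its contents. Ms4a3 encodes a membrane protein of the four-span family that is used as a marker of granulocyte and monocyte progenitors.

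Sequences upstream of the transcription start are shown for the 4 members whose RNA differed most between the groups. Each run is the 250 bases before the start, from RefSeq on build GRCm38.p6, written 5′ to 3′ on the gene's own strand. Entries matched 6 of the 7 members by symbol. Srgn has 2 listed starts, so 7 member windows were searched. Capitals mark matches on either strand to GAGGAA (a core bound by PU.1 and other ETS factors), AACGG or AACTG (MYB), TTNNGCAA (C/EBP) and TGTGGT (RUNX). No marked match overlaps another in these windows. Prtn3 lies at chr10:79879417-79879666 on the plus strand, Elane at chr10:79886062-79886311 on the plus strand, Mpo at chr11:87793534-87793783 on the plus strand and Ms4a3 at chr19:11640852-11641101 on the minus strand.
Prtn3: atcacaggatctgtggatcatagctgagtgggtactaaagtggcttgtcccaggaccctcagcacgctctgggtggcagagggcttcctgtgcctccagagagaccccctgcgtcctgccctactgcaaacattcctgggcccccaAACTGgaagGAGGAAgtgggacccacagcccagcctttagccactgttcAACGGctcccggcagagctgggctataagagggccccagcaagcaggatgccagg
Elane: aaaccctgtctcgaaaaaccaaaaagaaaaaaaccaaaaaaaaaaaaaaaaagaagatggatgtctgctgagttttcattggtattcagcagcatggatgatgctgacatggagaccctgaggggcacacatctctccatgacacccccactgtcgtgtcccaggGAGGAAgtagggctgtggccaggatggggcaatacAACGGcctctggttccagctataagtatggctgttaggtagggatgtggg
Mpo: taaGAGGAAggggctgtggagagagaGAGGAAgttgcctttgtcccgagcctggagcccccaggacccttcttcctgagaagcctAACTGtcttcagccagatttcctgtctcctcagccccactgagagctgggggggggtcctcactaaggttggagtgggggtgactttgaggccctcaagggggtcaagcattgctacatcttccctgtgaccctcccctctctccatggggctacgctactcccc
Ms4a3: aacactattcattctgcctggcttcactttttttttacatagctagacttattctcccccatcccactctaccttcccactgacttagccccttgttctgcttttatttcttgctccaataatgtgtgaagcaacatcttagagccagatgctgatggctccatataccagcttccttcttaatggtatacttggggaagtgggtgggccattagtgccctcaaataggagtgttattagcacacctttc

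Prtn3 and Elane are direct neighbours on chromosome 10, and their upstream windows share an arrangement. GAGGAA begins 95 bases before the start in Prtn3 and 85 in Elane, and AACGG follows, at 55 and 50 bases before the start. This arrangement was read from these 2 sequences, and its share among all windows was not computed. AACGG was found in 14.5% of 32851 windows of this length, and in these 2 of the 6 matched members. GAGGAA was found in 23.3% of windows and in 4 of the 6 members, and AACTG in 39.1% and again in 4. In Prtn3, Elane and Mpo the GAGGAA core is part of the longer run GAGGAAGT, found in 2.44% of windows; that run was picked after the sequences were seen. TGTGGT was found in 14% of windows, in Ctsg and in 1 of the 2 Srgn windows. TTNNGCAA, found in 9.56%, has no match in any member window. The Ms4a3 window holds none of the 5 motifs. A match is a run of letters and not evidence of binding.

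The 7 genes were not lowered or raised together in the KO-labelled libraries. RNA of Ms4a3 and Mpo fell, by 3.33-fold and 2.11-fold between group means, and RNA of Elane and Srgn fell by 1.28-fold and 1.2-fold. Prtn3 RNA rose 1.66-fold. The differences of Ctsg and Serpinb1a RNA did not pass the test. In footprints none of the 7 passed. So 5 of 7 members were called in RNA, where 60.8% of all genes tested were called (33.1% higher and 27.7% lower), and 0 of 7 in footprints, where 1.06% were called. The test was limma with Benjamini-Hochberg adjustment over all 6390 genes and a threshold of 0.05. At an unadjusted p under 0.05, 1 of 7 members (Srgn) and 18.2% of all genes stood out in footprints, and limma-voom on recovered footprint reads called 0 of 7.

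**Figure D1:**
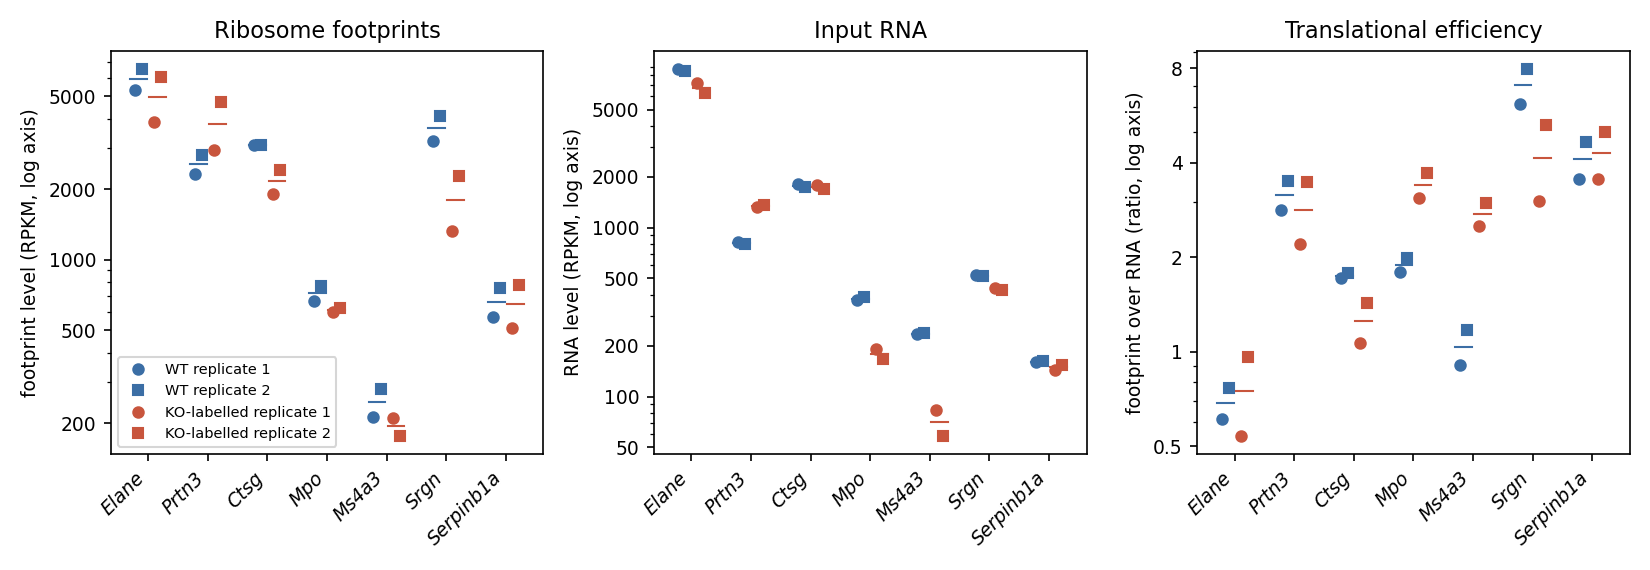
Footprint level, input RNA level (both RPKM, log axes) and their ratio, the translational efficiency (log axis), of the 7 primary granule genes. Points are single libraries, blue for WT and red for KO-labelled, and short lines are group means. Ms4a3 and Mpo RNA lie lower and Prtn3 RNA higher in the KO-labelled libraries.

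The series as a whole gives a frame for these values. Assigned footprint reads, inferred from the deposited values, were 878068 and 656249 in WT and 364087 and 274183 in KO-labelled libraries. Input depths, also inferred, lay within 1.12-fold. The 7 genes took 1.21% and 1.43% of the footprint reads in WT and 0.945% and 1.37% in KO-labelled libraries. Their exact 95% binomial intervals, which cover counting error only, were 1.19 to 1.23, 1.41 to 1.46, 0.914 to 0.977 and 1.33 to 1.41%. RNA of Rreb1 itself was 3.33 and 3.25 RPKM in WT against 6.1 and 6.93 in KO-labelled libraries, and its footprints were 14.1, 12.8, 12.9 and 8.19 RPKM, so these levels did not check the labels. Among stem and progenitor markers, Cd34 RNA was 4.41 and 4.71 RPKM in WT and 50.5 and 49.8 in KO-labelled libraries, and Kit RNA was 1.97 and 2.32 against 7.36 and 7.15. In each library the RNA of both markers lay below that of every one of the 7 granule genes, although the cells are labelled stem cells.

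Markers of other cells moved with the groups. In the KO-labelled libraries RNA rose for 4 of 4 tested mast cell and basophil markers, with a summed level of 290.4 to 300.2 RPKM against 28.2 to 31.2 in WT. The mast cell protease gene Cma1 was at 0 footprint reads in every library. RNA fell for 6 of 7 monocyte and macrophage markers, with sums of 132 to 142 against 456.9 to 475.6. Cpa3, Gata2 and Mcpt8 met the footprint filter only through the KO-labelled libraries, and Cx3cr1 only through the WT libraries. For Cpa3, footprint reads were 7 and 11 in WT and 247 and 229 in KO-labelled libraries. Counts of tested markers therefore leaned towards the group where a marker is high. Of all genes tested, 33.1% were higher in RNA and 27.7% lower. Mature neutrophil markers summed to 1270 to 1591 against 4112 to 4447, with 2 of 4 lower and 1 higher. The higher one, Retnlg, also met the filter only through the KO-labelled libraries. It had 8 and 1 footprint reads in WT and 9 and 10 in KO-labelled libraries. Eosinophil markers summed to 273 to 275 against 62.3 to 62.7, with 1 of 2 higher. Sums for T and NK cells were 366 to 435 against 17.7 to 18, for B cells 26.4 to 28.3 against 40.5 to 43, and for megakaryocytes 20.8 to 22.2 against 1.15 to 1.64. Single genes made up most of several sums. S100a8, also on the late granule list, had 4257 and 3923 RPKM of the mature neutrophil sum in WT. In the KO-labelled libraries it had 1173 and 1506 RPKM. Nkg7, which is also on the list of other promyelocyte genes, had RNA of 426 and 355.6 RPKM in the KO-labelled libraries, while the T cell receptor genes Cd3e and Cd3d stayed under 1 RPKM in all 4 libraries. Itga2b had 19.7 and 19.6 RPKM of the megakaryocyte sum, and Prg2 had 203 and 199 RPKM of the eosinophil sum. The part of these cells in the granule gene differences was not tested, and in bulk libraries fewer cells of a type and less RNA per cell cannot be told apart.

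Elane was the most abundant of the 7 on both scales. Its RNA was 8691 and 8517 RPKM in the WT libraries and 7205 and 6264 RPKM in the KO-labelled libraries, the highest or the next highest level of all tested genes in each library. Both KO-labelled values lay below both WT values, and Elane RNA fell by 0.36 ± 0.12 on the log2 scale (SE, with an adjusted p of 0.0404 by limma). This call was lost without WT replicate 1 (adjusted p = 0.493 by limma) and without WT replicate 2 (adjusted p = 0.46 by limma). Elane footprints were 5309 and 6530 RPKM in WT and 3897 and 6042 RPKM in KO-labelled libraries, from 1128 to 3706 reads. The groups overlapped, with KO replicate 1 lowest and KO replicate 2 above WT replicate 1, and the log2 difference was -0.28 ± 0.35 (SE, with an adjusted p of 0.713 by limma).

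Prtn3 was the only member whose RNA rose. Its RNA was 823 and 798 RPKM in WT and 1334 and 1357 RPKM in KO-labelled libraries. The groups were far apart and each was tight, and the log2 difference was 0.73 ± 0.08 (SE, with an adjusted p of 0.000208 by limma). Prtn3 footprints were 2324 and 2801 RPKM in WT and 2932 and 4702 RPKM in KO-labelled libraries, from 823 to 1573 reads. Both KO-labelled values lay above both WT values, but KO replicate 2 lay far above KO replicate 1, and the log2 difference of 0.54 ± 0.35 (SE) did not pass (limma adjusted p = 0.48).

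The ratio of Elane to Prtn3 within a library does not depend on library scaling, and the shift was visible on both scales. Elane RNA stood at 10.6 and 10.7 times Prtn3 RNA per length in WT and at 5.4 and 4.62 times in KO-labelled libraries. Elane footprints stood at 2.28 and 2.33 times Prtn3 footprints in WT and at 1.33 and 1.28 times in KO-labelled libraries. In both layers the group ranges were separate, and in footprints the ratio varied less between libraries of a group than either gene alone. The shift was not particular to this pair. Ctsg footprints stood at 1.33 and 1.1 times Prtn3 footprints in WT and at 0.65 and 0.515 times in KO-labelled libraries. Prtn3 RNA stood at 2.22 and 2.06 times Mpo RNA in WT and at 6.94 and 8.17 times in KO-labelled libraries. Without Prtn3, the footprint ratio of Elane to Ctsg overlapped between the groups, at 1.72 and 2.11 in WT and 2.05 and 2.49 in KO-labelled libraries. An exact permutation test of 2 libraries against 2 cannot go below a two-sided p of 0.333, so that test could not pass for these ratios, and no other test of them was run. The other direct neighbours on this stretch are Plppr3, beside Prtn3, and Cfd, beside Elane. Plppr3 footprints were 72.1 and 61.2 RPKM in WT and 55.2 and 46.2 in KO-labelled libraries, a log2 difference of -0.39 ± 0.30 (SE). Cfd, the gene of complement factor D, had an RNA mean of 1.66 RPKM in WT and 1.3 RPKM in KO-labelled libraries and was too low to test.

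Ctsg, the third protease gene, differed from both. Its RNA was 1803 and 1733 RPKM in WT and 1788 and 1687 RPKM in KO-labelled libraries. The groups overlapped, with a log2 difference of -0.02 and a 95% interval from -0.23 to 0.18 (limma adjusted p = 0.824). Ctsg footprints were 3088 and 3089 RPKM in WT and 1905 and 2422 RPKM in KO-labelled libraries, from 520 to 2123 reads. Both KO-labelled values were lower, by 1.43-fold between means, and the log2 difference of -0.52 ± 0.28 (SE) did not pass (limma adjusted p = 0.403). On chromosome 14 Ctsg lies beside Mcpt8, a basophil protease gene with an RNA mean of 16.9 RPKM in WT and 43.5 RPKM in KO-labelled libraries.

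Mpo RNA was 371 and 387 RPKM in WT and 192 and 166 RPKM in KO-labelled libraries. Every KO-labelled value was lower, and Mpo RNA fell by 1.08 ± 0.09 on the log2 scale (SE, with an adjusted p of 5.16e-05 by limma). Mpo footprints were 665 and 770 RPKM in WT and 596 and 620 RPKM in KO-labelled libraries, from 366 to 1258 reads. They were lower without overlap but close together, with a log2 difference of -0.24 ± 0.25 and a 95% interval from -0.90 to 0.43 (limma adjusted p = 0.665). The interval of the RNA difference ran from -1.28 to -0.88, so the footprint interval held both 0 and a part of it.

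Ms4a3 had the lowest footprint level of the 7 in every library and the largest RNA difference. Ms4a3 RNA was 233 and 238 RPKM in WT and 83 and 58.6 RPKM in KO-labelled libraries. The groups were widely apart, and Ms4a3 RNA fell by 1.74 ± 0.14 on the log2 scale (SE, with an adjusted p of 6.12e-05 by limma). Its footprints were 212 and 279 RPKM in WT and 211 and 177 RPKM in KO-labelled libraries, from only 119, 117, 49 and 31 reads. KO replicate 1 lay just under WT replicate 1, and the log2 difference of -0.33 ± 0.29 (SE) did not pass (limma adjusted p = 0.59). Of all genes tested, 4.32% passed the test in RNA and fell at least 2-fold on the fitted scale, and Mpo and Ms4a3 were the 2 of 7 members that did.

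Srgn had the largest footprint difference of the 7. Srgn footprints were 3227 and 4110 RPKM in WT and 1325 and 2279 RPKM in KO-labelled libraries, from 220 to 1292 reads. Both KO-labelled values were lower, by 2.03-fold between means, and the log2 difference was -1.07 ± 0.38 (SE, with an adjusted p of 0.248 by limma). Without KO replicate 2 it was -1.46 and passed narrowly (limma adjusted p = 0.0495), in a fit that called 1089 of all 6390 genes in footprints against 68 with all 4 libraries. Srgn RNA was 524 and 516 RPKM in WT and 439 and 430 RPKM in KO-labelled libraries, a small and tight difference, and it fell by 0.26 ± 0.07 on the log2 scale (SE, with an adjusted p of 0.0144 by limma). The RNA call was lost without WT replicate 1 (limma adjusted p = 0.219) and without WT replicate 2 (limma adjusted p = 0.191).

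Serpinb1a RNA was 159 and 162 RPKM in WT and 143 and 154 RPKM in KO-labelled libraries. The KO-labelled values were slightly lower without overlap, and the log2 difference of -0.11 ± 0.07 (SE) did not pass (limma adjusted p = 0.2), while without KO replicate 2 it was -0.17 and did (limma adjusted p = 0.0287). Serpinb1a footprints were 569 and 756 RPKM in WT and 510 and 780 RPKM in KO-labelled libraries, from 211 to 568 reads. The KO-labelled pair spanned the WT pair, with a log2 difference of -0.06 ± 0.34 and a 95% interval from -0.95 to 0.84. Its direction turned under median centring, at 0.00, and under upper quartile scaling, at 0.06. Serpinb1b and Serpinb1c, near copies of this gene, had no entry in the table used, and reads that fit more than one copy could have been counted for Serpinb1a.

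**Figure D2:**
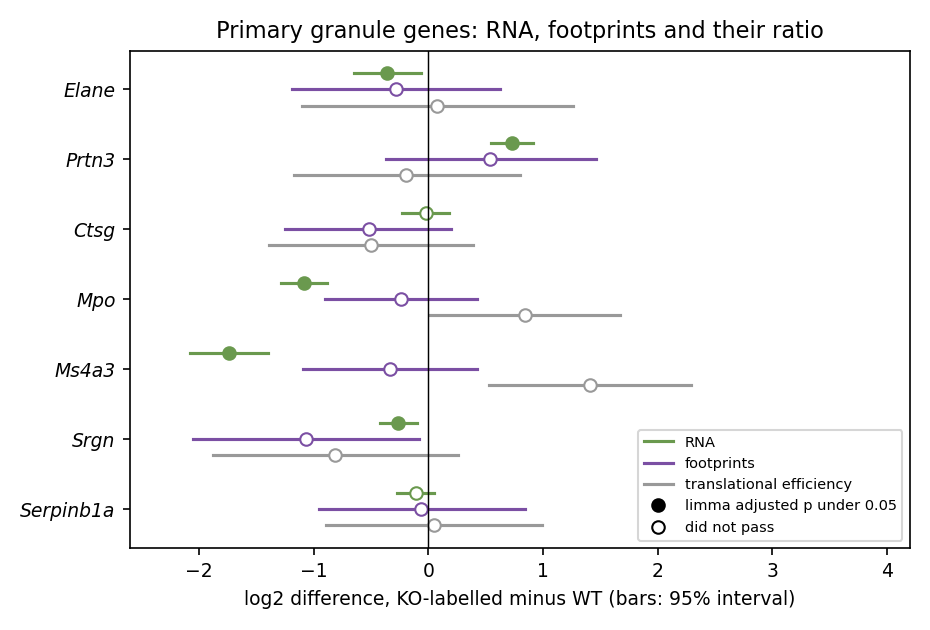
Log2 difference, KO-labelled minus WT, with its 95% interval from limma for RNA, footprints and translational efficiency of each gene. Filled points passed an adjusted p of 0.05, and they are 5 RNA differences. Footprint and efficiency intervals are several times wider than RNA intervals, and the RNA intervals of Mpo and Ms4a3 lie below -0.8 while their footprint intervals include 0.

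Translational efficiency (TE), the deposited ratio of footprint to RNA, did not pass for any member. By limma, 0 of 7 members and 0% of the 6390 genes were called. At an unadjusted p under 0.05 the counts were 2 of 7 and 13%. The 2 members were Ms4a3 and Mpo, both higher, a direction that 3.02% of all genes took at that level. TE of Ms4a3 was 0.91 and 1.17 in WT and 2.52 and 2.99 in KO-labelled libraries, a log2 difference of 1.41 ± 0.34 (SE, with an adjusted p of 0.297 by limma). TE of Mpo was 1.79 and 1.99 in WT and 3.09 and 3.71 in KO-labelled libraries, a log2 difference of 0.84 ± 0.32 (SE, with an adjusted p of 0.379 by limma). For both genes the groups were separate, yet neither difference survived adjustment. TE is computed from the same RNA values, so the RNA and TE comparisons are not independent measurements.

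TE of Srgn was 6.15 and 7.95 in WT and 3.01 and 5.29 in KO-labelled libraries, a log2 difference of -0.81 ± 0.42 (SE, with an adjusted p of 0.471 by limma). TE of Ctsg was 1.71 and 1.78 in WT and 1.07 and 1.44 in KO-labelled libraries, a log2 difference of -0.50 ± 0.34 (SE, with an adjusted p of 0.565 by limma). Both were lower without overlap. With Mpo and Ms4a3 that made 4 of 7 members whose groups were separate in TE, where 47.9% of all genes were. In footprints the same count was 5 of 7 against 52.5%, and in RNA 6 of 7 against 82%, so separate groups were common at this number of libraries.

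TE of Elane was 0.611 and 0.767 in WT and 0.541 and 0.965 in KO-labelled libraries, the lowest of the 7 genes in each library. Between 3.72% and 12.8% of tested genes lay below it, so the gene with nearly the most RNA carried few footprints for its RNA level. TE of Prtn3, its neighbour, was 2.82 and 3.51 in WT and 2.2 and 3.46 in KO-labelled libraries, near the median of all tested genes, which was 2.51 to 2.87. The ratio of Elane TE to Prtn3 TE was 0.217 and 0.219 in WT and 0.246 and 0.279 in KO-labelled libraries. TE of Serpinb1a was 3.56 and 4.66 in WT and 3.55 and 5.03 in KO-labelled libraries, and its groups overlapped like those of Elane and Prtn3.

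**Figure D3:**
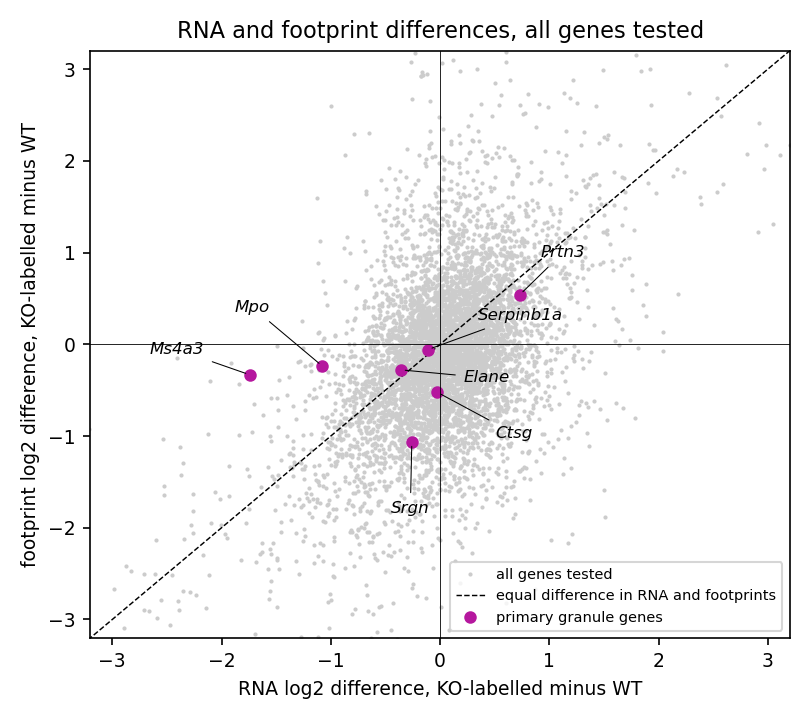
Log2 difference in footprints against log2 difference in RNA, KO-labelled minus WT, for the 6390 genes tested (grey; 140 lie outside the plotted range) and the 7 primary granule genes (magenta). Genes on the dashed line differ equally in both. Ms4a3 and Mpo lie above the line at the left, Srgn and Ctsg below it, and Elane, Prtn3 and Serpinb1a close to it.

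The order of the genes by level also differed between the layers and the groups. In WT, mean RNA per length fell in the order Elane, Ctsg (1768 ± 49.5 RPKM, SD, n = 2), Prtn3 (811 ± 17.6), Srgn (520 ± 5.56), Mpo (379 ± 11.2), Ms4a3 (236 ± 3.64) and Serpinb1a (160 ± 1.86), and no 2 neighbours in that order overlapped. In KO-labelled libraries Ms4a3 (70.8 ± 17.2 RPKM, SD, n = 2) came after Serpinb1a (149 ± 8.07), and the rest of the order held.

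In WT, mean footprints per length fell in the order Elane, Srgn (3669 ± 625 RPKM, SD, n = 2), Ctsg (3088 ± 0.435), Prtn3 (2562 ± 337), Mpo (718 ± 74.4), Serpinb1a (662 ± 132) and Ms4a3 (246 ± 47.3). Among neighbours there, only Mpo and Serpinb1a overlapped. In KO-labelled libraries the order was Elane, Prtn3 (3817 ± 1252 RPKM, SD, n = 2), Ctsg (2163 ± 366), Srgn (1802 ± 675), Serpinb1a (645 ± 191), Mpo (608 ± 17.1) and Ms4a3 (194 ± 23.8). Neighbouring pairs that overlapped were Elane with Prtn3, Ctsg with Srgn, and Serpinb1a with Mpo.

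As shares of the summed level of the 7 genes, Elane made up 69% of the RNA in both WT libraries and 64.4% and 61.9% in the KO-labelled libraries. Its share of footprints was 34.5% and 35.6% in WT and 34.3% and 35.5% in KO-labelled libraries, nearly the same in all 4. Prtn3 took 15.1% and 15.3% of the footprints in WT and 25.8% and 27.6% in KO-labelled libraries, while Srgn took 21% and 22.4% against 11.6% and 13.4%. The summed footprint level was 15393 and 18335 RPKM in WT and 11375 and 17022 RPKM in KO-labelled libraries, and these ranges overlapped.

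**Figure D4:**
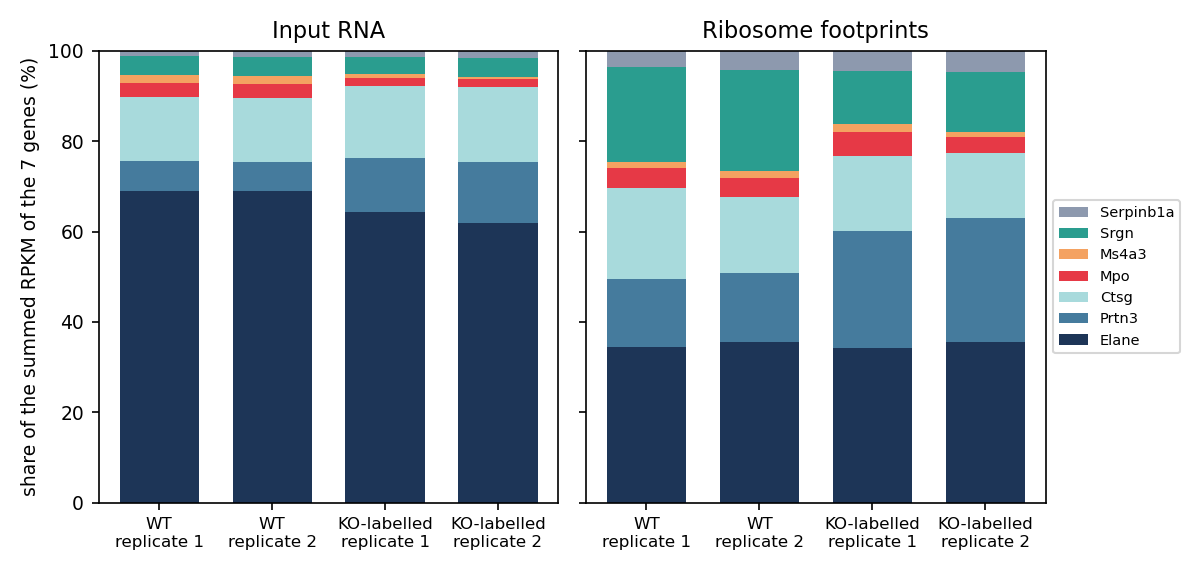
Share of the summed RPKM of the 7 genes taken by each gene in each library, for input RNA and for ribosome footprints (stacked bars to 100%). Elane takes over 60% of the RNA and 34.3% to 35.6% of the footprints, the Prtn3 footprint share is larger in the KO-labelled libraries, and the Srgn share is smaller.

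The other genes of the primary granule and of the programme around it were read from 6 lists, with 79 tested genes outside the 7. In RNA 26 were higher and 37 lower, where 33.1% and 27.7% of all genes tested were. In footprints 3 passed, 1 higher and 2 lower, where 1.06% of all genes tested passed. The counts per list below are to be read beside these same shares. Retnlg and Chst11 met the footprint filter only through the KO-labelled libraries, and Xylt2 only through the WT libraries. The members' median log2 difference was -0.26 in RNA, -0.28 in footprints and 0.05 in TE, beside 0.04, -0.13 and -0.15 for all genes tested. None of the 79 passed in TE by limma, where 14 had an unadjusted p under 0.05, as did 13% of all genes tested.

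Of the other azurophil contents, 5 of 16 tested genes were higher in RNA, 8 were lower and 3 did not pass, with a median log2 difference of -0.20 in RNA and -0.04 in footprints, where none passed. Prss57, which encodes neutrophil serine protease 4, had RNA of 75.5 and 75.2 RPKM in WT and 186 and 160 RPKM in KO-labelled libraries, a log2 difference of 1.18 ± 0.08 (SE, with an adjusted p of 2.7e-05 by limma). Its footprints were 118 and 163 RPKM in WT and 258 and 377 RPKM in KO-labelled libraries, separate but not called (limma adjusted p = 0.194). Thus 2 protease genes of the granule, Prtn3 and Prss57, rose in RNA while Elane fell. Prss57 was named after its values were seen.

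Lyz2, the lysozyme gene of myeloid cells, fell in RNA from 5515 and 5526 RPKM in WT to 920 and 819 RPKM in KO-labelled libraries (log2 difference -2.67 ± 0.10, SE, with an adjusted p of 1.01e-06 by limma). Psap, the precursor of the saposins, and Ctsb, the cysteine protease cathepsin B, fell in RNA by 1.45 and by 1.08 on the log2 scale. Cd63, a membrane protein of azurophil granules and lysosomes, rose in RNA by 1.35 on that scale. For Ctsd, the aspartic protease cathepsin D, and Man2b1, a lysosomal mannosidase, the RNA log2 differences of -0.16 and -0.05 did not pass. Bpi, a bactericidal granule protein, was at 0 footprint reads in every library.

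Among genes that activate, inhibit or pack the proteases, 7 of 19 tested were higher in RNA, 8 were lower and 4 did not pass. Medians were 0.07 in RNA and -0.13 in footprints. Chst11, called higher, met the footprint filter only through the KO-labelled libraries, with 2 and 1 reads in WT and 8 and 13 there. Xylt2, called lower, met it only through the WT libraries, with 18 and 19 reads against 7 and 5 in KO-labelled libraries. Slpi, a secreted inhibitor of elastase and cathepsin G, rose in RNA from 730 and 736 RPKM in WT to 3312 and 3320 RPKM in KO-labelled libraries (log2 difference 2.18 ± 0.08, SE, with an adjusted p of 1.14e-06 by limma). Slpi footprints were 603 and 777 RPKM in WT and 839 and 1195 RPKM in KO-labelled libraries, a log2 difference of 0.55 ± 0.32 (SE) that did not pass. Ctsc encodes cathepsin C, the dipeptidase that activates the granule proteases, and its RNA was 24.8 and 27.1 RPKM in WT and 6.76 and 5.07 RPKM in KO-labelled libraries, a log2 difference of -1.97 ± 0.12 (SE, with an adjusted p of 1.38e-05 by limma).

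Ctsc was singled out after its values were seen. Calr, the chaperone calreticulin that binds the myeloperoxidase precursor, rose in RNA by 0.70 on the log2 scale, while Pdia3, a disulfide isomerase that works with it, fell by 0.33. Cstb, an inhibitor of cysteine cathepsins, fell in RNA by 0.67. Of the sulfotransferases that modify chondroitin chains of the kind serglycin carries, Chst13 rose in RNA by 0.24 and Chst12 had an RNA log2 difference of 0.00.

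Haem synthesis supplies the cofactor of myeloperoxidase, and 4 of its genes were tested. Alas1, the rate-limiting enzyme in non-erythroid cells, fell in RNA by 0.46 on the log2 scale and Urod by 0.51. Fech, which inserts the iron, rose by 0.98 and Ppox by 0.24. Alad was too low to test. Urod footprints were 129 and 102 RPKM in WT and 42.4 and 1375 RPKM in KO-labelled libraries, with KO replicate 2 standing apart from the other 3 libraries.

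Among granulopoiesis transcription factors, 3 of 12 tested were higher in RNA, 4 were lower and 5 did not pass, and none passed in footprints. Spi1, which encodes PU.1, had RNA of 330 and 318 RPKM in WT and 302 and 285 RPKM in KO-labelled libraries, and Cebpe, which drives later granule genes, had 258 and 248 against 245 and 221 RPKM. Neither passed (limma adjusted p = 0.122 and 0.205), and Myc did not either (limma adjusted p = 0.492). Cebpb and Cebpd fell in RNA by 0.96 and 1.09 on the log2 scale, and the immediate early factor Egr1 fell by 3.22.

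Other promyelocyte genes had 8 of 13 higher in RNA, 4 lower and 1 that did not pass. Hp (haptoglobin), Plac8 and Ly6c2 rose in RNA by 0.31, 0.61 and 1.60 on the log2 scale, and Fcgr3, an Fc receptor, and Gstm1, a glutathione transferase, fell by 1.20 and 0.66. Plac8 footprints went the other way, at 15920 and 20145 RPKM in WT and 6736 and 8564 RPKM in KO-labelled libraries. Their log2 difference of -1.24 ± 0.32 (SE) did not pass (limma adjusted p = 0.17). Late granule genes follow the primary granule in maturation. In RNA 12 of 16 were lower, 1 was higher and 3 did not pass, with a median log2 difference of -1.12. The higher gene, Retnlg, met the footprint filter only through the KO-labelled libraries, with 8 and 1 reads in WT and 9 and 10 there. Camp, Ngp, S100a8 and S100a9 fell in RNA by 1.40, 0.38, 1.62 and 1.49, while Cyba, a subunit of the phagocyte oxidase, had a difference of 0.09 that did not pass. Ngp footprints were higher instead, at 564 and 584 RPKM in WT and 1069 and 1150 RPKM in KO-labelled libraries. That log2 difference of 0.95 ± 0.25 (SE) did not pass (limma adjusted p = 0.172). Of the 7 primary granule genes, Mpo and Ms4a3 had RNA differences near or beyond the RNA median of the late granule genes.

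The 3 programme genes that passed in footprints were late granule genes, and Cd177 is also on the promyelocyte list. Cd177, a surface protein held in specific granules, had footprints of 660 and 754 RPKM in WT and 99.7 and 122 RPKM in KO-labelled libraries and fell by 2.67 ± 0.27 on the log2 scale (SE, with an adjusted p of 0.0295 by limma). Chil3, a chitinase-like protein, fell by 4.94 ± 0.37 (SE, with an adjusted p of 0.0214 by limma). RNA of Cd177 and Chil3 fell too, by 2.98 and 5.12 on the log2 scale. RNA of Ltf (lactoferrin) was 18.4 and 22.3 RPKM in WT and 29.5 and 16.4 RPKM in KO-labelled libraries. Its log2 difference of 0.12 did not pass (limma adjusted p = 0.691). Ltf footprints rose by 3.10 ± 0.32 on the log2 scale (SE, with an adjusted p of 0.0314 by limma), from 24 and 18 reads in WT and 106 and 59 in KO-labelled libraries. None of the 3 passed without WT replicate 1 (limma adjusted p = 0.474, 0.405 and 0.474) or without WT replicate 2 (limma adjusted p = 0.453, 0.362 and 0.403). Without either WT library, 0 of all 6390 genes passed in footprints by limma, and 395 and 420 had an unadjusted p under 0.05.

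**Figure D5:**
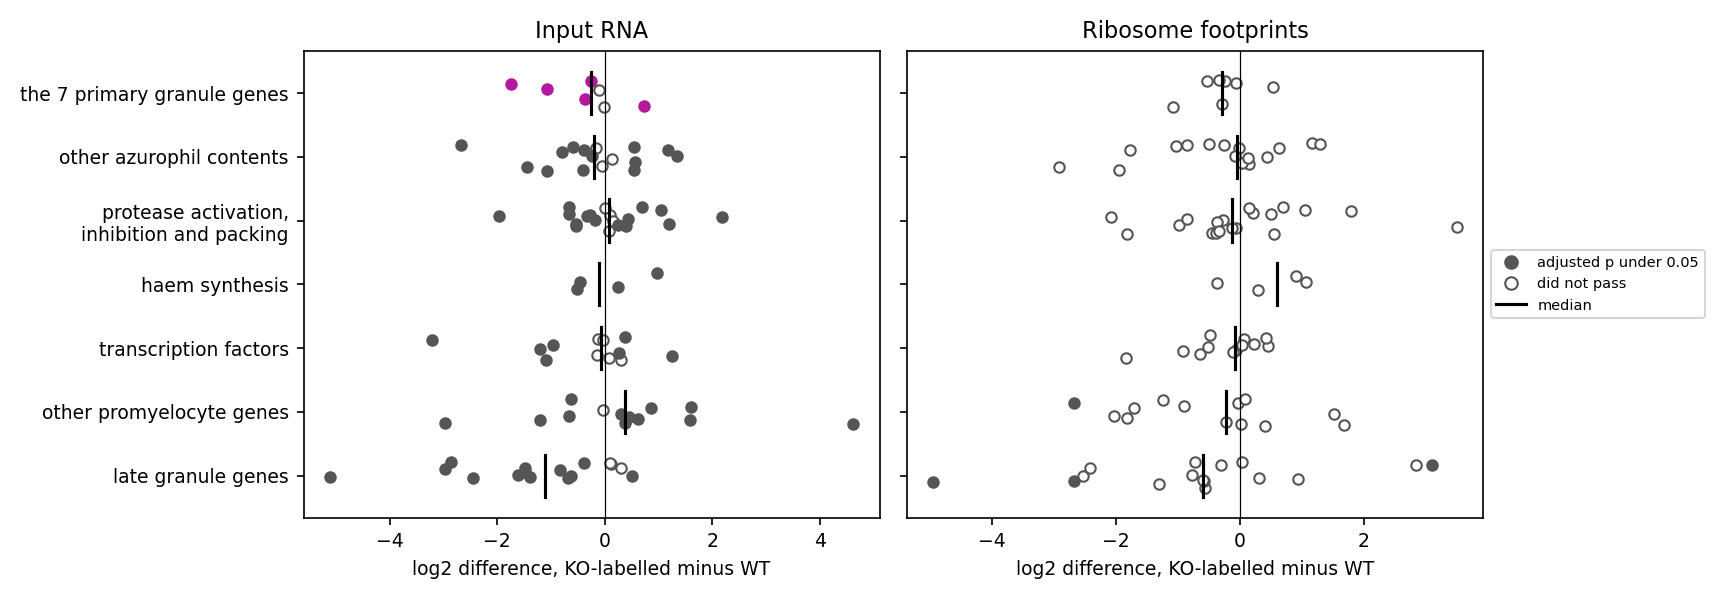
Log2 difference, KO-labelled minus WT, in RNA and in footprints for the 7 primary granule genes and the tested genes of 6 lists. Each point is a gene, filled where it passed an adjusted p of 0.05, and the black bar is the median. In RNA most lists hold genes on both sides of 0, and late granule genes lie mostly below it. In footprints 3 genes passed, and Cd177, on 2 lists, is drawn in both.

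Likeness of pattern was measured as the root mean square distance between gene-centred log2 profiles over the 8 values of a gene, 4 footprint and 4 RNA. For Mpo the nearest 3 of all tested genes were Pdcd6ip, Mpc2 and Lta4h (distances 0.118, 0.118 and 0.123). Ms4a3 was nearest to Lta4h, Slc28a2 and Itgb2l (0.192, 0.201 and 0.243), and Mpo ranked 5 among 6389 genes at 0.263. In the reverse direction Ms4a3 ranked 207 for Mpo. The nearest genes of the other members, like those of Mpo and Ms4a3, lay outside the group: Elane to Sdcbp, Fem1c and Dbnl (0.040, 0.052 and 0.059), Prtn3 to Slc27a1, Usp16 and Ogfr (0.069, 0.071 and 0.074), Ctsg to Tex264, Tmem30a and Nqo2 (0.046, 0.047 and 0.058), Srgn to Cers6, Ms4a6b and Chmp5 (0.061, 0.063 and 0.064), and Serpinb1a to Slc7a1, Tcof1 and Tpr (0.046, 0.053 and 0.054). For Prtn3 the nearest of the 7 was Serpinb1a at a distance of 0.368, and it ranked 1603 among all genes. With 8 values and 2 groups, such distances rest mostly on the group difference in each layer.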

How the data were processed

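Values came from the single table of 16442 genes that the authors deposited. The submitters' processing notes list featureCounts, HISAT2 2.1.0, DESeq2 and CASAVA without saying what each did. They also list the human build hg38, while the table's gene symbols are mouse. Per the labels' protocols, micrococcal nuclease digested each lysate for 30 minutes, protected fragments 25 to 40 nucleotides long were gel-purified, and some lysate was set aside as input.

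RPKM is reads scaled to gene length and to the library's assigned reads. The deposited footprint values behave as RPKM plus 1, a unit read from the values. The deposited translational efficiency is the ratio of that value to the matching input RNA value, which also has 1 added, and RNA was recovered as footprint over ratio, minus 1. The deposited p-value column was not used. The labels do not state which gene length the RNA values use. For footprints, the inferred length was a multiple of 3 for 70.8% of genes and for all 7 members. Whole footprint reads were recovered for the 10536 genes detected in 2 or more libraries, to a tolerance of 0.002 reads; input reads were not. Unstranded or shared reads from overlapping or near-identical genes could not be told apart.

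Differences were fitted to log2(RPKM + 1) by limma 3.58.1 (R 4.3.3; eBayes with trend) over 6390 genes with a CPM of at least 20 in at least 2 libraries, with group as the only term, and two-sided p-values were adjusted by Benjamini-Hochberg. A gene could pass this filter through 1 group alone. Fold changes on this scale are understated for low genes. Ratios of means are on RPKM. TE was fitted as log2 footprint minus log2 RNA. The scripts were tested on simulated data, where whole reads were recovered exactly for 95.7% of 10299 genes. The series calls the replicates biological, but the labels do not state which animals each library came from; p-values therefore measure only how these libraries spread. Same-numbered libraries did not deviate together (r = 0.0226 in footprints, -0.335 in RNA and 0.00832 in TE), so no pairing was assumed.

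The members and the 6 programme and 9 marker lists were chosen with earlier results of these data known. Named genes are the 7 members, programme genes that passed in footprints or TE, up to 6 per list with the highest mean RNA, the 3 nearest profiles of each member, and Rreb1. Other genes named are markers, genome neighbours or, for Prss57, Ctsc, Bpi, Chst11 and Xylt2, genes picked after their values were seen. The erythroid marker list and 1 gene that this rule names are not reported here. Promoter windows came from RefSeq on GRCm38.p6. Python 3.11.15 was used for the rest.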

Additional observations from a re-analysis of the deposited data

How the results depend on the processing

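Of the 7 granule genes, 0 passed in footprints in every setting except without KO replicate 2, where 1 did (Srgn; range 0 to 1 over the libraries left out); that fit called 1089 of all 6390 genes, against 68. In RNA 5 passed; 3 did with the replicate number as a block and 3 to 6 with a library left out. Mpo, Ms4a3 and Prtn3 RNA passed in every alternative run. The Elane RNA call was lost under 5 alternatives, with adjusted p of 0.0798 with no filter on low genes, 0.0523 with upper quartile scaling and 0.14 with the block; Srgn RNA was lost with the block (0.0653). In TE 0 of 7 passed throughout. Of the 79 other programme genes, 3 passed in footprints, against 0 with no filter on low genes, 5 at a CPM of at least 50, 1 with the replicate block, 5 by limma-voom on recovered reads and 0 to 21 with a library left out; in TE the range with a library left out was 0 to 9. Over all genes those ranges were 0 to 1089 and 0 to 700.

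Directions that turned were of small differences. Serpinb1a footprints gave 0.00 under median centring and 0.06 under upper quartile scaling. With a library left out, the log2 difference ran from -0.36 to 0.25 for Serpinb1a footprints, -0.60 to 0.04 for Elane footprints, -0.07 to 0.02 for Ctsg RNA, -0.34 to 0.49 for Elane TE, -0.52 to 0.14 for Prtn3 TE and -0.20 to 0.30 for Serpinb1a TE. The lone library left in a group was assumed to vary like the other group. A crossed pairing of replicate numbers, added after seeing the data, called 138 genes in footprints, 4396 in RNA and 2 in TE, against 68, 3882 and 0 without a block and 32, 3479 and 0 with the numbers as given. The cause of these changes was not tested. Ms4a3 had the fewest footprint reads of the 7, 31 in KO replicate 2.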
